A study of Mus musculus with 4 samples.

Results

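The regions described here are the very dense islands of H4K16ac, stretches of the mouse genome (build mm9) in which reads of histone H4 acetylated at lysine 16 lay at 200 per kb or more. An island is a run of neighbouring windows enriched in reads, as called by the authors, and its density is its read count divided by its width. On chromosomes 1 to 19, 32 of 48170 islands of the neural progenitor (NPC) list and 596 of 39508 islands of the embryonic stem cell (ESC) list reached that density. These were 628 of the 88848 islands of both lists, X, Y and mitochondrial islands included.

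The NPC were 46c cells, an ES cell line with GFP in the Sox1 gene, kept for 5 days in NB27 and Neuro2 supplements and sorted for GFP. The ESC were undifferentiated 46c cells. Each cell type had 1 H4K16ac library and 1 input library of MNase-digested DNA, made from the same cell line with 1 antibody lot, so no difference has a replicate check and no p-value was computed. Sox1 marks early neuroectoderm, so the sort kept cells that had switched on this gene, and marker levels of the cells were not analysed here. The NPC islands held 24386370 reads and the ESC islands 17935144, and total library depth was not used here.

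In mammals H4K16ac is laid down mainly by the acetyltransferase MOF (KAT8), which works in the MSL and NSL complexes, and is removed by deacetylases such as SIRT1. The modified lysine lies in the part of the H4 tail that contacts the neighbouring nucleosome, and its acetylation hinders the folding of nucleosome arrays in vitro. In ES cells the mark is found at active genes and enhancers. A ChIP-seq density also counts every read that the aligner placed in a stretch, whatever number of copies of that sequence a genome has. No mm9 sequence or gene annotation was used here, so regions are given by position alone, and copy number was not tested.

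The islands were selected on their own read density, so the following densities are a description. In the NPC list, 0.0664% of islands were very dense, with a median of 244 reads per kb and a maximum of 594. In the ESC list, 1.51% were very dense, with a median of 217 and a maximum of 717. Medians over all islands of chromosomes 1 to 19 were 76.6 reads per kb in NPC and 92.5 in ESC. Very dense islands were therefore rare in both lists and 18.6 times as many in ESC at this limit. That ratio moved with the limit, since 160 NPC and 4980 ESC islands reached 150 reads per kb and 7 NPC and 18 ESC islands reached 300. With an equal limit per 1000000 island reads the numbers were 8 in NPC and 596 in ESC. The last members inside the limit were 3 NPC islands at 200 to 205 reads per kb and 3 ESC islands at 200. They were chr14:9995201-9996800, chr11:116599001-116620600 and chr12:73861401-73862000 in NPC, and chr1:22928801-22929400, chr12:31607201-31607600 and chr12:36881601-36885400 in ESC. Just outside lay chr8:19853201-19881800, chr1:21622801-21623200 and chr13:6601801-6612200 in NPC, at 193 to 197 reads per kb. In ESC chr1:24618401-24623000, chr5:54061001-54064800 and chr4:132907401-132911000 lay just outside, at 199.7 to 199.8. Counting error matters at this edge, since the exact Poisson 95% interval of the density lay wholly at 200 or above in 24 of 32 NPC members and 246 of 596 ESC members.

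Widths were not uniform. NPC members had a median width of 2500 bp and a range of 200 to 95000 bp, against a median of 4200 bp over all NPC islands. Of these members, 9 were at most 1000 bp wide and 10 were wider than 8000 bp. ESC members had a median of 2000 bp and a range of 400 to 124400 bp, against 3000 bp over all ESC islands. Among them 520 (87.2%) were at most 4000 bp wide and 28 were wider than 8000 bp. The members thus ran from single short peaks to long domains, and 31.2% of NPC members against 4.7% of ESC members were over 8000 bp.

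**Figure D1:**
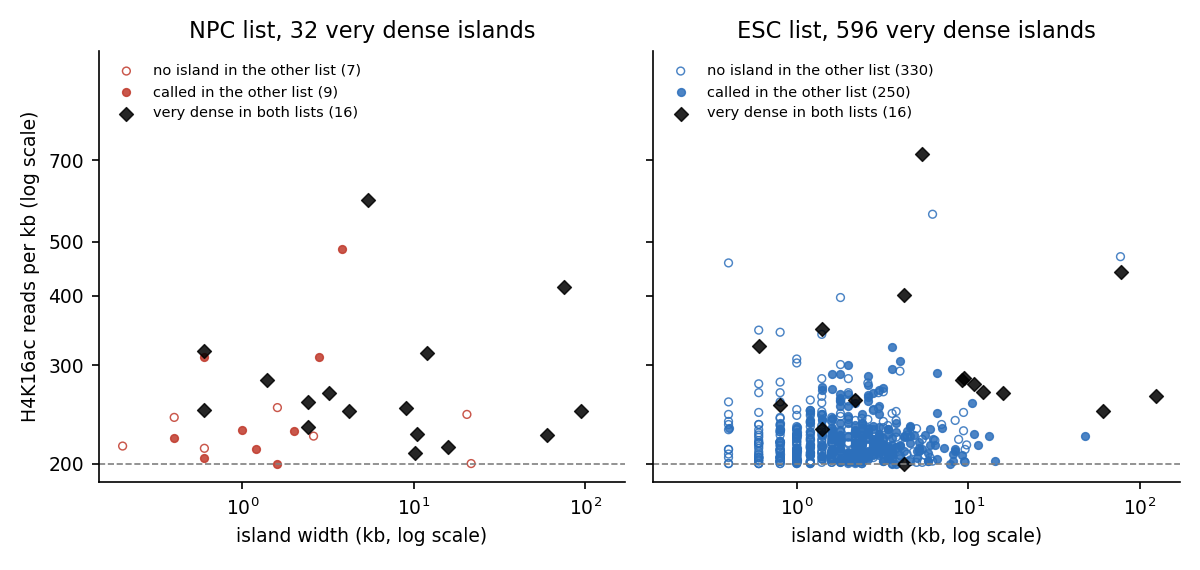
Width (kb, log scale) against density (reads per kb, log scale) of every very dense island, 32 in NPC (left) and 596 in ESC (right). Open circles had no island in the other list, filled circles were overlapped there, and black diamonds were very dense in both lists. Most ESC points lie between 200 and 300 reads per kb at widths below 4 kb, and 3 of the 5 widest islands of each list are diamonds.

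A few long islands held a large part of the reads. Very dense islands held 0.426% of NPC island reads and 2.56% of ESC island reads. The 4 NPC members with most reads carried 70.3% of the reads of all 32, and the 4 ESC members with most reads carried 25.9% of the reads of all 596. In NPC these were an island of 30988 reads at chr11:3025201-3100000, then 23556 reads at chr8:19914001-20009000, 13458 at chr8:19679601-19739400 and 5008 at chr10:57683401-57703800. The fifth in reads, with 4325, was at chr11:116599001-116620600. The same 5 islands were the widest NPC members, at 20.4 to 95 kb. In ESC the leading islands were 36409 reads at chr9:2999801-3077200, 34510 at chr11:3022201-3100200, 32807 at chr8:19914001-20038400 and 15115 at chr8:19679601-19740600. The fifth was at chr8:19745601-19793600, with 10772 reads over 48 kb. These too were the 5 widest of their list, at 48 to 124.4 kb.

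Presence in the other list was not part of the choice of an island, so it was compared with the same share over all islands. Of the 32 NPC members, 25 (78.1%, exact binomial 95% interval 60% to 90.7%) overlapped an ESC island, against 34.6% of all NPC islands. Of the 596 ESC members, 266 (44.6%, 40.6% to 48.7%) overlapped an NPC island, against 40.8% of all ESC islands. The NPC share lay above that of its list, and the ESC share near that of its list. Without islands very dense in both lists, left out after seeing the data, the NPC share was 56.2% (29.9% to 80.2%), an interval that holds 34.6%. The NPC share is not given by width here. These intervals treat islands as independent draws and do not cover the spread between cultures. A list holds no reads outside islands, so a stretch with no called island may still carry the mark.

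Wide islands were overlapped more often than narrow ones, so the ESC share was also taken within classes of width. Among ESC islands over 1000 to 2000 bp wide, 79 of 182 members (43.4%, 36.1% to 50.9%) were overlapped by an NPC island, against 18.3% of all 8870 ESC islands of that width. Over 2000 to 4000 bp, it was 120 of 193 members (62.2%, 54.9% to 69%), against 35.2%. Above 8000 bp the order turned, with 20 of 28 members (71.4%, 51.3% to 86.8%) against 85.7%. Islands of 150 to under 200 reads per kb, the next class down, were overlapped in 10.9% of cases over 1000 to 2000 bp and 42% over 2000 to 4000 bp. At these widths the very dense ESC islands had an NPC counterpart more often than islands slightly less dense, with intervals that did not overlap.

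**Figure D2:**
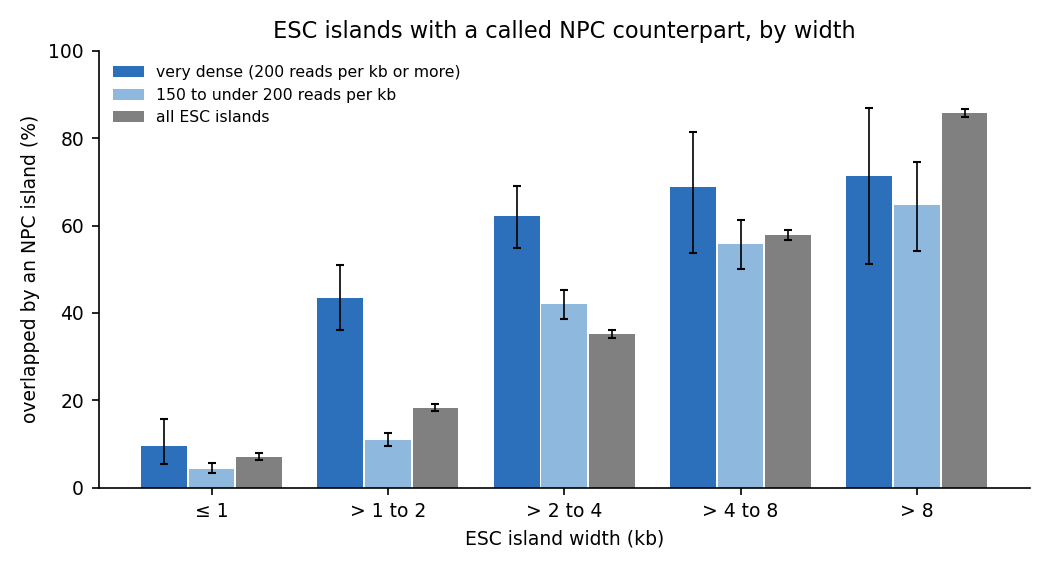
Share of ESC islands overlapped by an NPC island (%), by ESC width class in kb, for very dense islands, islands of 150 to under 200 reads per kb and all ESC islands. Bars are shares and lines exact 95% binomial intervals. Very dense islands over 1 to 2 kb stand at 43.4%, above the 10.9% of the next density class and the 18.3% of all ESC islands.

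Overlap with a very dense island of the other list split the members into classes. It was found for 16 of 32 NPC members (50%, 31.9% to 68.1%), against 0.565% of all NPC islands, and for 16 of 596 ESC members (2.68%, 1.54% to 4.32%), against 0.0633% of all ESC islands. These formed 16 regions that were very dense in both lists. A further 9 NPC members met an ESC island below the limit, and 7 met none. Of the other ESC members, 250 met an NPC island below the limit and 330 met none.

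The 16 regions very dense in both lists carried 0.365% of NPC and 0.594% of ESC island reads. The densest was chr2:98502201-98507600, called with the same start and end in both lists, with 3209 reads (594 per kb) in NPC and 3873 (717 per kb) in ESC. At chr11:3022201-3100200 the NPC island had 414 reads per kb over 74.8 kb and the ESC island 442 over 78 kb. A narrow one, chr9:100999601-101000200, again had identical edges and held 191 NPC reads and 195 ESC reads in 600 bp. The read numbers of this last region were nearly equal although the NPC islands held more reads in all.

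Chromosome 8 held 5 of the 16. The island at chr8:19679601-19739400 in NPC had 225 reads per kb, against 248 for its ESC counterpart. At chr8:19886801-19902600 in NPC the density was 214, against 268 in ESC. The NPC island at chr8:19914001-20009000 had 248 reads per kb, against 264 in the longer ESC island from the same start. Within the same 329.4 kb stretch, the ESC island at chr8:19745601-19793600 (224 reads per kb) met an NPC island at 183, just outside the limit. The remaining pair were chr8:56197201-56209200, with 316 reads per kb in NPC and 269 in ESC, and chr8:76142801-76143400, with 250 and 255.

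The start of the assembled sequence held another 5. Mouse chromosomes have their centromere at the end where coordinates begin, next to satellite repeats that are largely missing from assemblies. The regions were chr4:3005601-3015800 with 209 reads per kb in NPC and 285 in ESC, chr12:3109801-3111200 with 282 and 349, chr16:3231401-3242200 with 226 and 278, and chr17:3075601-3085200 with 252 and 282, beside the chromosome 11 island above. Below 3.3 Mb, a limit chosen after the positions were seen, lay 5 of 32 NPC members (15.6%) and 7 of 596 ESC members (1.17%), against 0.251% of all NPC islands and 0.354% of all ESC islands. The other ESC members there were the 77.4 kb island of chromosome 9, with 470 reads per kb and no NPC island within 114.2 kb, and chr18:3004201-3013800, with 212 and none within 99.4 kb. Thus 5 of the 7 very dense positions at chromosome starts were very dense in both lists, and the remaining ones were not called in NPC.

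The other 4 were on chromosomes 6, 12 and 15. At chr15:74914601-74918800 the NPC density was 268 reads per kb and the ESC density 402. At chr15:91736801-91741000, with the same edges in both lists, NPC had 248 and ESC 200. These regions of chromosome 15 gave the lowest and the highest NPC over ESC ratio of the 16. The chr6:29697401-29699800 region had 258 in NPC and 231 in ESC, and chr12:9431801-9434200 had 233 and 260.

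**Figure D3:**
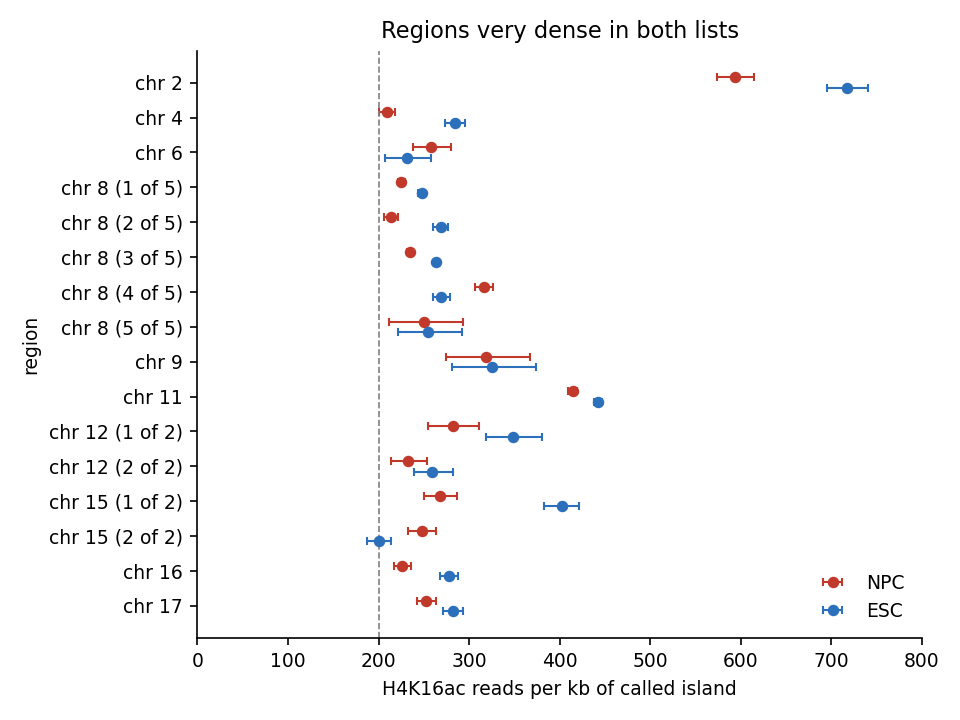
Density (reads per kb of called island) of the 16 regions very dense in both lists, NPC in red above ESC in blue, ordered by chromosome. Lines are exact Poisson 95% intervals, which cover counting error only, and the dashed line is the limit of 200. ESC is denser in 13 of the 16, and on chromosomes 2 and 11 both lists exceed 400.

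The NPC density was next set against the ESC density as a log2 ratio, after each was divided by the island reads of its list. Without that scaling each ratio is 0.44 higher, since the NPC islands held more reads. Over all 14434 regions called in both lists the median scaled log2 ratio was -0.51. The 275 regions with a very dense island had a median of -1.63, and 237 of them (86.2%) lay at -1 or lower, against 15.5% of all regions. Unscaled, 190 of the 250 regions very dense in ESC only (76%) lay at -1 or lower, against 5.14% of all regions. Choosing ESC islands for high density pushes this ratio down and choosing NPC islands pushes it up, so nothing is read from these directions.

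In the regions very dense in both lists the median scaled ratio was -0.60, with a range of -1.03 to -0.13. Without scaling it was -0.16, with a range of -0.59 to 0.31. Over all regions called in both lists the medians were -0.51 scaled and -0.07 unscaled. The exact counting interval of the unscaled ratio included 0 in 4 of the 16, and that of the scaled ratio in 0 of the 16. Scaled, 0 of the 16 lay above 0, against 1.65% of all regions called in both lists, and unscaled 3 did (18.8%, 4.05% to 45.6%), against 39.4%. The scaled count is thus near that of all regions, and the sign of the ratio at these positions depended in part on the scaling.

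**Figure D4:**
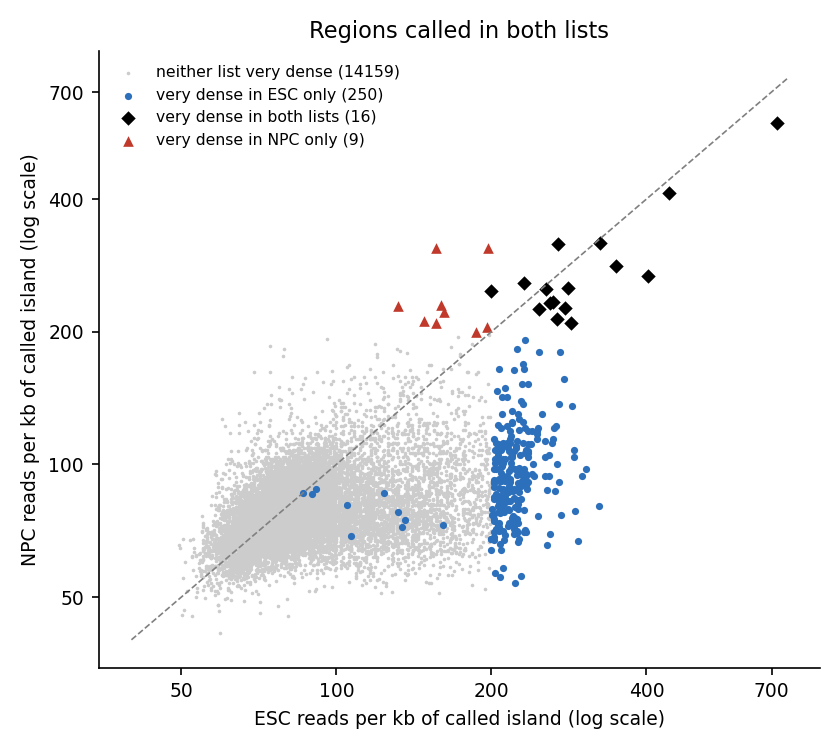
NPC density against ESC density (reads per kb, log scales) of the regions called in both lists. Of these, 16 were very dense in both, 9 in NPC only and 250 in ESC only. Grey marks regions where neither list was very dense, and the dashed line marks equal density. A region joins all overlapping islands, so some regions chosen for 1 ESC island have an ESC density under 200. The ESC-only regions centre on an NPC density of 91.8, and the regions very dense in both have medians of 251 in NPC and 273 in ESC.

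The 9 regions very dense in NPC only had a median of 222 reads per kb in NPC and 160 in ESC. The largest contrast of single islands was at chr17:13743001-13746800, where the NPC island held 1844 reads (485 per kb) and the overlapping ESC island held 2033 reads over 13 kb (156 per kb). A second NPC island of lower density met the same ESC island, and over the joined region chr17:13733201-13746800 NPC had 2676 reads (209 per kb) and ESC 2033 (156 per kb). At chr13:74665801-74668600, called with the same edges, NPC had 869 reads (310 per kb) and ESC 552 (197 per kb). At chr11:44276001-44276600 the NPC island had 310 reads per kb and the ESC island 156 over 1400 bp. At chr14:9995201-9996800, again with the same edges, NPC had 320 reads and ESC 299, so the limit of 200 per kb separated nearly equal counts.

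The 7 NPC members with no ESC island lay 1.2 to 164.2 kb from the nearest one. The longest were chr11:116599001-116620600, with 4325 reads over 21.6 kb and the nearest ESC island 10.6 kb away, and chr10:57683401-57703800, with 5008 reads over 20.4 kb and the nearest 8 kb away. The densest was chr6:5654801-5656400, at 252 reads per kb (95% interval 228 to 278), which was also the farthest from any ESC island. The others were chr14:14679001-14679400 at 242, chr4:118219001-118221600 at 224, chr8:34530801-34531000 at 215 and chr7:27444601-27445200 at 213 reads per kb. The chromosome 8 island was 1 window of 200 bp with 43 reads, and its interval of 156 to 290 reached below the limit.

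Island edges were also compared. NPC members shared both edges with an ESC island in 7 of 32 cases (21.9%), against 1.97% of all NPC islands. ESC members shared both edges with an NPC island in 14 of 596 cases (2.35%), against 2.4% of all ESC islands. The NPC members thus had the same borders in both cell types more often than NPC islands at large, and the ESC members did so about as often as any ESC island. Only overlapped islands can share edges, and 78.1% of NPC members were overlapped against 34.6% of all NPC islands. The NPC contrast in edges therefore includes the difference in overlap.

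The 250 ESC members that met an NPC island below the limit had NPC counterparts of 91.8 reads per kb in the median, with a range of 53.7 to 192. That median stood at the 85.7th percentile of all NPC islands. NPC islands met by ESC islands of 150 to under 200 reads per kb had a median of 85, and those met by any ESC island 78.6. At chr4:133310201-133313800 NPC had 201 reads (67 per kb) and ESC 1062 (295 per kb), the lowest scaled ratio of the 275 at -2.58. At chr11:52171601-52175600 NPC had 176 reads (97.8 per kb) and ESC 1223 (306 per kb). In the median the counterparts were thus above the middle of the NPC list. The comparison was not matched for width, so it is not read as a trait of these regions. That the counterparts were less dense than the ESC islands follows from the choice of this class, so nothing is read from it.

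Of the ESC members, 330 (55.4%) had no NPC island. That is near the list as a whole, since 44.6% of members and 40.8% of all ESC islands were overlapped. The median width of the 330 was 1400 bp, against 2400 bp where a less dense NPC island was met and 7300 bp where both lists were very dense. The nearest NPC island was a median of 34.1 kb away. Of the 330, 81 (24.5%) lay over 100 kb from one, and these distances are not given over all ESC islands. The densest of the 330 was chr17:39979801-39986000, with 3473 reads (560 per kb) and no NPC island within 569 kb. The longest was the 77.4 kb island at the start of chromosome 9, with 36409 reads. Narrow examples were chr13:77578001-77578400 at 458 reads per kb, chr17:36621401-36622000 at 347 and chr12:75904801-75905600 at 344. Others among the densest were chr9:35111801-35113600 at 397 and chr10:21861601-21863000 at 341 reads per kb. Of the 18 ESC members at 300 reads per kb or more, 8 (44.4%, 21.5% to 69.2%) were overlapped. That interval holds the 44.6% of all ESC members and the 40.8% of all ESC islands, so the densest showed no difference in overlap.

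Members of the same list often lay close together in ESC, but hardly more than other islands did. Another very dense ESC island lay within 1 Mb of 276 of 596 ESC members (46.3%), against 42.6% of all ESC islands. For NPC it was 3 of 32 (9.38%), against 2.75% of all NPC islands, and these 3 were the chromosome 8 islands between 19679601 and 20009000.

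The largest groups of ESC members were on chromosome 13. Between 21325601 and 22136200 lay 15 members among 50 ESC islands, at 202 to 324 reads per kb, and between 23268001 and 23857200 lay 12 among 42, at 202 to 280. Of these 27 members 12 met an NPC island, where 40.8% of all ESC islands did. The densest NPC island in the spans had 139 reads per kb. The member of highest density, chr13:21900801-21904400, held 1166 ESC reads (324 per kb), and its NPC counterpart 209 reads over 2.6 kb (80.4 per kb). Next to it in density, chr13:22066201-22067200 held 308 ESC reads per kb and met no NPC island. In these spans 29.3% of ESC islands and 0 of 22 NPC islands were very dense, against 1.51% and 0.0664% of each whole list. The spans were chosen for their very dense ESC islands, so the ESC share is high by choice. With so rare a class in NPC, 0 of 22 shows no difference from the NPC list. The largest histone gene cluster of the mouse is on chromosome 13, but whether these islands lie at histone genes was not looked up.

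The next groups had 7 members each, chr17:32966201-36622000 among 144 ESC islands and chr3:95020401-96307200 among 73. In each of them 4 members met an NPC island, where 40.8% of all ESC islands did. A group of 6 narrow members at chr14:42634001-43582800, 800 to 1000 bp wide, met none, at 200 to 235 ESC reads per kb. Narrow ESC islands were overlapped less often than wide ones, so nothing is read from such small groups.

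The share of islands that were very dense differed among chromosomes. In NPC it was highest on chromosome 8, at 6 of 2602 (0.231%, 0.0847% to 0.501%), and no NPC member was on chromosomes 3 or 5. In ESC it was highest on chromosome 13, at 52 of 1863 (2.79%, 2.09% to 3.64%), and lowest on chromosome 19, at 10 of 1341 (0.746%, 0.358% to 1.37%). NPC intervals were wide, since most chromosomes held 1 or 2 members. The intervals treat islands as independent, though members lay in groups. On chromosome 8, 3 of the 6 NPC members lay within 329.4 kb. On chromosome 13, 27 of the 52 ESC members lay in the 2 groups with most members. Within 5 Mb of the first or last island of a chromosome lay 7 of 32 NPC members (21.9%, 9.28% to 40%), an interval that holds the 10.2% of all NPC islands. Without starts below 3.3 Mb, already described above, the NPC share was 7.41%. For ESC it was 57 of 596 members (9.56%), against 9.96% of all ESC islands. All 7 NPC members were at the first end.

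**Figure D5:**
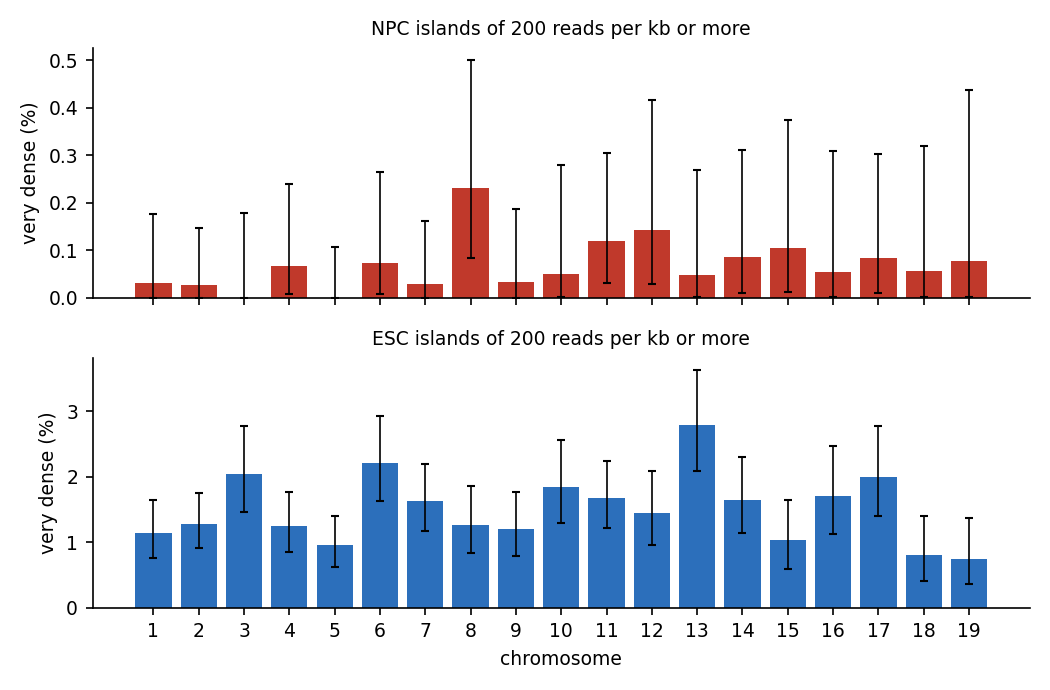
Share of islands that were very dense (%) on each of chromosomes 1 to 19, NPC and ESC, on axes of different scale, with exact 95% binomial intervals. Chromosome 8 is highest in NPC at 0.231% and chromosome 13 in ESC at 2.79%.

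NPC members stood in sparser surroundings than other NPC islands. Their nearest NPC island was a median of 35.2 kb away, against 3.2 kb for all, and a median of 15.5 other NPC islands lay within 500 kb, against 38. ESC members had their nearest ESC island at a median of 12 kb, against 8.6 kb, with 22 neighbours against 25. Neighbours of NPC members had a median density of 75 reads per kb, against 76.5 around all NPC islands, and those of ESC members 97.5, against 90.4. The NPC islands around very dense ones were thus fewer but about as dense as elsewhere.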

How the data were processed

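H4K16ac was profiled by ChIP of MNase-digested chromatin in 1 library of each cell type, with 1 input each. The submitters' processing notes name build mm9 and these tools: SICER 1.1, bedtools 2.10.1, Bowtie 0.12.7, SAMtools 0.1.7 and CASAVA 1.8.2. The names of the deposited lists carry a window of 200, a gap of 600 and an FDR of 0.01, read here as SICER's settings in bp. How input and duplicate reads were treated is not given in the sources used here. The deposited counts are reads per island, whole numbers made by the authors with no normalization. No column of per-sample values was left out (0 unused).

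Density was reads divided by width, and widths were end minus start plus 1. Members and lists were chosen with earlier results of these data known. Overlap meant at least 1 shared base. Poisson and binomial (Clopper-Pearson) 95% intervals are exact. Those of densities and of ratios cover counting error only and treat reads as independent molecules, which PCR reads are not. Those of shares treat islands as independent draws. With 1 library a cell type no test was made. Named positions were the 15 densest islands of each list, the 5 widest and 5 with most reads, those very dense in both, the 3 nearest each side of the limit, and the largest groups within 1 Mb (tied at 7 members), with further ones chosen after their values were seen. Code was tested on simulated data and used scipy 1.17.1, pandas 2.3.3, numpy 2.4.6 and matplotlib 3.10.9 under Python 3.11.15. Planned results on sequence content and overlap with genes were not run, because the annotation at hand was not of mm9.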

Additional observations from a re-analysis of the deposited data

Results flagged for a closer look

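Outside chromosomes 1 to 19, signal of 200 reads per kb or more was also found. The NPC list had 2 such islands among its 107 on chromosome X, chrX:166421201-166447200 at 285 reads per kb and chrX:131574801-131592200 at 225. The ESC list had 27 among its 1046 on chromosome X, led by chrX:166421001-166447200 at 452, which covers the denser NPC island. It also had 2 on chromosome Y and 1 on the mitochondrial sequence. These were in data outside the comparisons above.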

How the results depend on the processing

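Of 144 values recomputed, 93 stayed within the error of the value reported, 51 moved and 0 changed sign. Only the log2 ratio could change sign, since the numbers, shares and widths cannot be negative. No paired analysis was possible because each cell type had 1 library and the labels give no replicate numbers, and no library could be left out. The cause of the moves was not tested. With a minimum of 150 reads per kb there were 160 NPC and 4980 ESC islands, with 0.742% and 11.3% of island reads, median widths of 600 and 1400 bp, and 26.2% and 97.8% within 1 Mb of another; 22.7% of ESC islands were overlapped, 1.12% by a very dense NPC island, and the median log2 ratio was -1.44. With a minimum of 300 there were 7 NPC and 18 ESC islands with 0.168% and 0.483% of reads, 0% and 11.1% within 1 Mb, 100% of NPC islands overlapped, 16.7% of ESC islands overlapped by a very dense NPC island and 16.7% within 5 Mb of an end, and a log2 ratio of -0.63. With an equal minimum per 1000000 island reads, 8 NPC islands remained with 0.17% of reads, 100% overlapped and 0% within 1 Mb, and 0.839% of ESC islands met a very dense NPC island. At 1000 bp or wider, reads were 0.422% in NPC and 2.48% in ESC, ESC width 2200 bp and ESC overlap 51%. With X and Y, reads were 0.473% and 2.88%. Requiring 50% of the bases gave an ESC overlap of 36.1%, a distance of 100 kb gave 15.3% of ESC islands near another, and 2 Mb gave 6.04% near an end. The log2 ratio was -1.19 unscaled, -1.22 scaled to regions called in both lists, -2.16 by reads and -1.56 with islands joined across 2000 bp. The following were chosen after seeing the data. Without islands very dense in both lists, 16 NPC members were left, with 56.2% overlapped, 0% within 1 Mb and 0.0613% of reads, against 1.97% in ESC. Reads were 0.109% in NPC and 1.84% in ESC without islands of 20 kb or more, 0.423% and 2.39% without chromosome 13, and 0.27% and 2.1% without starts below 3.3 Mb, where 7.41% of NPC members were near an end.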
